A study of Homo sapiens with 9 samples.

Results

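The genes described here are 10 members of the BCL2 family in HCC827, an established human lung adenocarcinoma cell line that carries an activating EGFR mutation. They were chosen by name: the anti-apoptotic genes BCL2, BCL2L1 and MCL1, the effector genes BAX and BAK1, and the BH3-only genes BCL2L11, BID, BAD, BMF and BBC3. All 10 had a row among the 60675 gene rows of the count table, and 9 passed the filter on low counts. Polyadenylated RNA was sequenced from cells stably expressing a control hairpin (NS), CBX5 hairpin G1 or CBX5 hairpin G7, with 3 libraries per group and 9 in all. CBX5 encodes the heterochromatin protein HP1 alpha, and the series' title links its loss to resistance to EGFR inhibitors. All groups grew in DMEM with serum, no drug is named in the labels, and whether a hairpin line was 1 clone or a pool is not given in the sources used here. The series describes the 3 libraries as biological replicates but names no separate transductions, so p-values measure the spread between these libraries.

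The BCL2 family decides whether the outer membrane of the mitochondrion stays closed. BAX and BAK1 encode the effectors that form pores in it and release cytochrome c, while BCL2, BCL-XL (from BCL2L1) and MCL1 hold the effectors and the BH3-only proteins in check. BH3-only proteins such as BIM (BCL2L11) and BMF bind the anti-apoptotic members and, for some, activate the effectors directly. In EGFR-mutant lung cancer cells, BIM is known as a main mediator of death after EGFR inhibition, because ERK signalling downstream of EGFR holds it low.

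Library totals ran from 12701561 to 22372353 counts, and mitochondrially encoded genes took 13.37% to 19.8% of them. G7 replicate 3 had the largest mitochondrial share. A chi-square over genes, divided by its degrees of freedom, put it at 24.7 and 19.5 from G7 replicates 1 and 2, which differed by 1.51. CBX5 RNA, the target, lay between 361 and 377 CPM (counts relative to library size, scaled between libraries by TMM) with the control hairpin, between 141.5 and 143 CPM with G1 and between 201 and 204 CPM with G7. Of 8 lung epithelial tumour markers, 7 had a mean of at least 1 CPM and NKX2-1 was listed at 0. The same held for 1 of 7 leukocyte, 1 of 7 fibroblast and 2 of 5 endothelial markers. The summed epithelial markers ranged from 10719 to 11634 CPM in NS, from 14673 to 14925 CPM with G1 and from 12584 to 13186 CPM with G7. Summed leukocyte markers lay between 6.87 and 8.75 CPM in NS, 3.27 and 4.8 CPM with G1 and 6.66 and 7.83 CPM with G7, and endothelial ones between 84.2 and 92.8, 71.2 and 77.1, and 85.8 and 92.5 CPM. The largest leukocyte marker was CD14, at 6.04 CPM in NS, 2.68 CPM with G1 and 6.18 CPM with G7. With G1 the endothelial marker PECAM1 fell from 73.4 to 55.7 CPM, while CDH5 rose from 14.0 to 17.6 CPM. These sums thus follow single genes in 1 cell line and were not read as shares of cell types. The part of these markers in the results was not tested, and in bulk RNA fewer cells of a type and less RNA per cell cannot be told apart.

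The upstream sequences of 3 members are shown because BAX and BMF had the smallest p-values of all members with G1, one rising and the other falling with both hairpins, and because BIM is the member best known from EGFR inhibition. Each is the 250 bases before the RefSeq start (build GRCh38.p14), 5′ to 3′ in the gene's direction. Capitals in BAX mark the E-box CACGTG, which reads the same on both strands. In BMF and BCL2L11 they mark the GC box GGGCGG and the box named CCAAT after its letters, searched on both strands. In BCL2L11 they also mark the FOXO core TGTTTAC, searched likewise.
BAX, chr19:48954625-48954874, plus strand: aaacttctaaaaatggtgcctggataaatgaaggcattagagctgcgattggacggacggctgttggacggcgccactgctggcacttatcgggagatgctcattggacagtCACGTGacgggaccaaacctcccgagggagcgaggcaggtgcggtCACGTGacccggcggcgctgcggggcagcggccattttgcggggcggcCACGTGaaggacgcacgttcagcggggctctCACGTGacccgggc
BMF, chr15:40108880-40109129, minus strand: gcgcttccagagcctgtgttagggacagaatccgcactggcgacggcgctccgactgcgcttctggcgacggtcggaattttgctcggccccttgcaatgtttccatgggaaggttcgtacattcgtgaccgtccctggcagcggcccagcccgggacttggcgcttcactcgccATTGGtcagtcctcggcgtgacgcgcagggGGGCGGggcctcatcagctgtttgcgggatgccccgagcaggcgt
BCL2L11, chr2:111120664-111120913, plus strand: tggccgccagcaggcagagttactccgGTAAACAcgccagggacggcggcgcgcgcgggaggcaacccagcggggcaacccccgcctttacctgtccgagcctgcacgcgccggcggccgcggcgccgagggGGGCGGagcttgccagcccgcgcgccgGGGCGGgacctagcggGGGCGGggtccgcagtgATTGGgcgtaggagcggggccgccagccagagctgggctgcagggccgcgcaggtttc
The BAX window held 4 E-boxes, beginning 138, 93, 45 and 14 bases before the start. It also held 1 GC box and 2 CCAAT boxes, which are not marked in it. Single E-boxes stood in the BBC3 window and in some of the BID windows listed. Of 35116 RefSeq promoter windows of the same length, 6.34% held at least 1 E-box and 0.014% (5 windows) held 4 or more. The E-box is the DNA element of MYC, MAX and related factors. GC boxes stood in 42.64% of all windows, CCAAT boxes in 32.01% and FOXO cores in 2.98%, and the marked motifs did not overlap each other in these sequences. In the printed BMF window a GC box began 45 bases and a CCAAT box 75 bases before the start. A further BMF window, chr15:40106967-40107216, held none of the motifs searched. The BCL2L11 window held 3 GC boxes, 1 CCAAT box and 1 FOXO core. The E2F site TTTCGCGC (0.44% of windows) was in none of the 16 windows listed for 9 members, all but MCL1, and neither was the CRE TGACGTCA (1.65%), on either strand. In GENCODE 29 the last 60 bases of the BAX window lie in an exon of a BAX transcript and the last 13 of the BMF window in an annotated UTR. The BCL2L11 window holds no exon but lies inside the annotated gene, which begins at 111119378. A match is a description of letters and says nothing about binding.

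The anti-apoptotic genes MCL1 and BCL2L1 had the highest levels of the 10 members in control cells. Levels of different genes were compared in TPM, counts per kilobase of merged GENCODE 29 exons scaled to the same total in every library. MCL1 stood at 191 ± 10.5 TPM (SD, n = 3), at percentile 97.9 of 19693 protein-coding genes, and BCL2L1 at 118 ± 8.14 TPM. BAX followed at 50.9 ± 6.70 TPM. BCL2L11 (25.9 ± 2.99 TPM) and BID (22.7 ± 1.90 TPM) came next, and their libraries overlapped. BMF stood at 16.4 ± 1.59 TPM, apart from its neighbours. BBC3 (5.95 ± 1.01 TPM) and BAD (5.33 ± 1.16 TPM) overlapped again. BCL2, the gene that names the family, was the lowest measured member at 0.543 ± 0.025 TPM, percentile 41.9, and the MCL1 level was 337 to 371 times that of BCL2 in the 3 control libraries. With G1 that ratio lay between 182 and 189.7. MCL1 and BCL2L1 together made up 70.8% ± 1.499 of the summed TPM of the 10 members in NS, 68.3% ± 0.505 with G1 and 71.2% ± 0.085 with G7. This sum takes BAK1 as 0 and leaves out the wider family, in which BNIP3L had 91.4, BOK 46.7 and PMAIP1 30.9 TPM in NS. It is thus no share of the whole family.

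**Figure D1:**
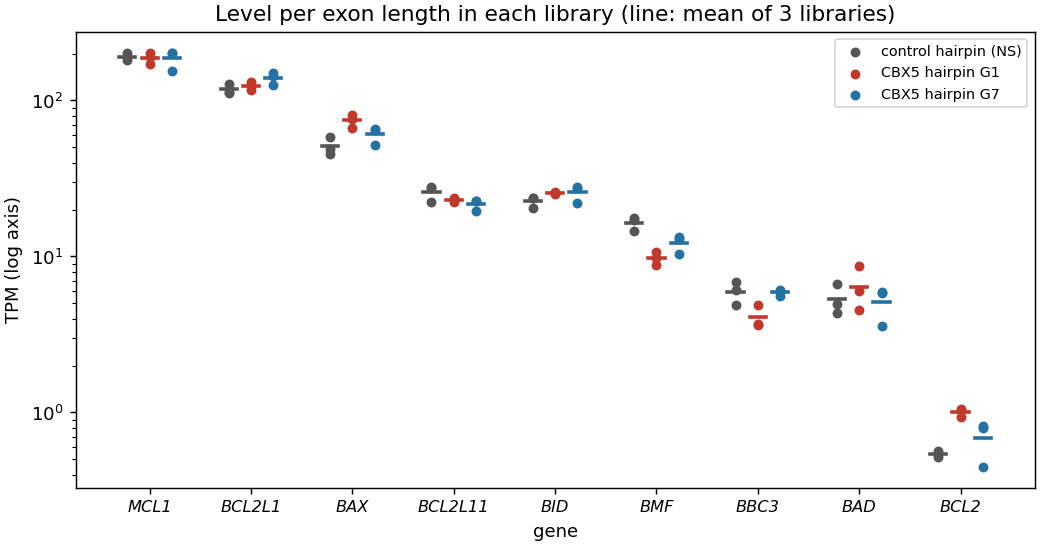
Level of each measured family member per exon length (TPM, log axis) in each of the 9 libraries, with a line at the mean of each group of 3. MCL1 and BCL2L1 lie above 100 TPM in every library, while BCL2 lies near or below 1 TPM in all groups, and BAK1, listed at 0, is not drawn.

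BID and BCL2L11 lay close together in the middle of the list. With G1, BID (25.5 ± 0.331 TPM) lay above BCL2L11 (22.9 ± 0.675 TPM) without overlap, and with G7 the 2 genes had 25.8 ± 3.34 and 21.7 ± 1.76 TPM and overlapped. Their order depends on the length used: with the longest transcript in place of merged exons, BID (33.1 ± 2.45 TPM in NS) lay above BCL2L11 (26.98 ± 2.86 TPM in NS) without overlap in all 3 groups. BAX reached 74.7 ± 7.56 TPM with G1 and 60.6 ± 7.46 TPM with G7. As a share of the members' summed TPM, BAX went from 11.6% ± 0.957 in NS to 16.4% ± 0.567 with G1 and 13.2% ± 0.050 with G7. The 5 BH3-only genes together went from 17.4% ± 0.919 to 15.1% ± 0.272 and 15.4% ± 0.064. These sums are descriptions without a test.

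The G1 comparison asked how the family stood at the deeper loss of CBX5 RNA. BCL2, BAX, BID and BCL2L1 rose, BMF and BBC3 fell, and MCL1, BCL2L11 and BAD were not called. That is 4 higher and 2 lower of 9 tested members, where a call means an adjusted p under 0.05 in edgeR's quasi-likelihood test. Of all 13264 tested genes 59.1% were called, 30.4% upward and 28.7% downward, so 6 of 9 is close to the background. Libraries of the 2 groups did not overlap for 6 of 9 members, against 64.1% of all genes. TMM scaling called 4031 genes upward and 3806 downward, and upper quartile scaling 3066 and 4815. The median log2 fold change of the members was 0.16, beside -0.01 over all tested genes.

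G7, where CBX5 fell less, was set against the same control libraries and gave 3 higher (BCL2L1, BAX and BID) and 2 lower (BMF and BCL2L11) of 9. Of all tested genes 22.7% were called, 13.1% upward and 9.64% downward. Groups did not overlap for 5 of 9 members, against 35.3% of all genes. TMM scaling called 1735 genes upward and 1279 downward, and upper quartile scaling 1398 and 1603. The members' median log2 fold change was 0.05, beside 0.01 over all tested genes. BAX, BID and BCL2L1 were thus called higher, and BMF lower, in each of the comparisons with the control. Between the hairpins, G1 minus G7, 2 members were higher (BCL2 and BAX) and 3 lower (BCL2L1, BMF and BBC3), against 44.9% of all tested genes called, 23.3% upward and 21.6% downward. Groups did not overlap for 6 of 9 members, against 53.6% of all genes. TMM scaling called 3092 genes upward and 2870 downward, and upper quartile scaling 2346 and 3751. Against a change of 1.5-fold, edgeR's glmTreat called 0 of 9 members in each comparison, while it called 9.18% of all genes with G1, 0.0754% with G7 and 2.38% between the hairpins. At an unadjusted p under 0.05, glmTreat had 1 member with G1 (BCL2, adjusted p = 0.0548) and 0 in the other comparisons. The estimated fold with G1 was 1.97 for BCL2, 1.555 for BAX and 0.637 for BMF, so a missed threshold does not show that these changes were under 1.5-fold.

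**Figure D2:**
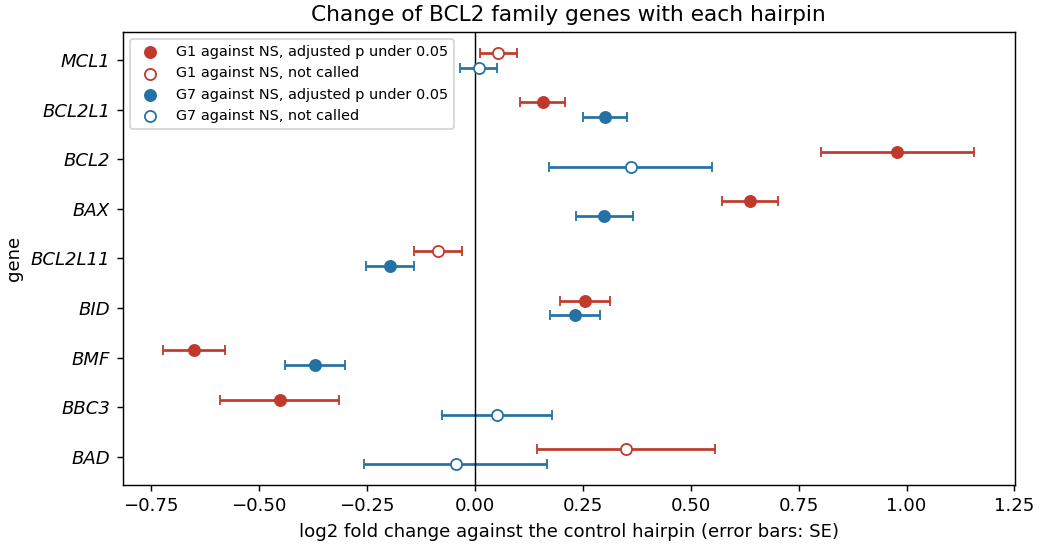
Log2 fold change of the 9 tested members against the control hairpin with G1 (red) and G7 (blue), with error bars of 1 SE and filled points for an adjusted p under 0.05. BMF lies left of 0 and BAX, BID and BCL2L1 right of 0 with both hairpins, while BCL2 has the largest value, 0.98, with G1.

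Among the anti-apoptotic genes, BCL2 (ENSG00000171791, GRCh38 chromosome 18, 63123346 to 63320128) roughly doubled with G1 from a low level. Its TMM-scaled values were 2.04, 2.13 and 2.14 CPM in the NS libraries, 4.21, 4.16 and 4.11 CPM with G1 and 3.10, 3.04 and 2.05 CPM with G7. All G1 libraries lay above all others, and G7 replicate 3 lay within the NS range while the other G7 libraries lay above it. The log2 fold change with G1 was 0.98 ± 0.178 (SE), a fold of 1.97, at an edgeR adjusted p of 0.000114. With G7 it was 0.36 ± 0.189 at an edgeR adjusted p of 0.185, and without G7 replicate 3 it was 0.55 at an adjusted p of 0.0332. The direct G1 minus G7 difference was 0.62 ± 0.158 (edgeR adjusted p = 0.00378). These values rest on 27 to 79 reads per library.

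BCL2L1 (ENSG00000171552, chromosome 20, 31664452 to 31723989) encodes BCL-XL and, by splicing, also a pro-apoptotic short form that gene counts cannot tell apart from it. The libraries had 119, 132 and 135 CPM in NS, 150.2, 138 and 144 CPM with G1 and 159, 154 and 163 CPM with G7. The groups did not overlap in any pairing, and G7 was the highest. Its rise with G7 was 0.30 ± 0.051 on the log2 scale (edgeR adjusted p = 0.000325). With G1 it was 0.16 ± 0.051 (edgeR adjusted p = 0.0139). The antisense gene ABALON, at 0 counts, overlaps 43.0% of its exon bases. The G1 call ended with upper quartile scaling (0.07, edgeR adjusted p = 0.267), without NS replicate 1 (0.10, 0.0965) or without G1 replicate 1 (0.13, 0.0804). The G1 minus G7 difference was -0.14 ± 0.050 (edgeR adjusted p = 0.0256), and that call ended without the filter on low counts (-0.12, adjusted p = 0.0634) or without G1 replicate 2 (-0.11, 0.129) or 3 (-0.14, 0.0605) or G7 replicate 1 (-0.14, 0.0585) or 3 (-0.12, 0.0535). BCL2L1 was the only member whose value was higher with G7 than with G1 among those called higher with both.

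MCL1 (ENSG00000143384, chromosome 1, 150574551 to 150579738) encodes a short-lived guardian of the mitochondrial membrane. Its libraries stood at 281, 276 and 268 CPM in NS, 286, 293 and 277 CPM with G1 and 282, 286 and 263 CPM with G7, and all groups overlapped. The log2 fold change was 0.05 ± 0.043 with G1 (edgeR adjusted p = 0.296) and 0.01 ± 0.043 with G7 (0.916). Its sign turned negative with upper quartile scaling for both.

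**Figure D3:**
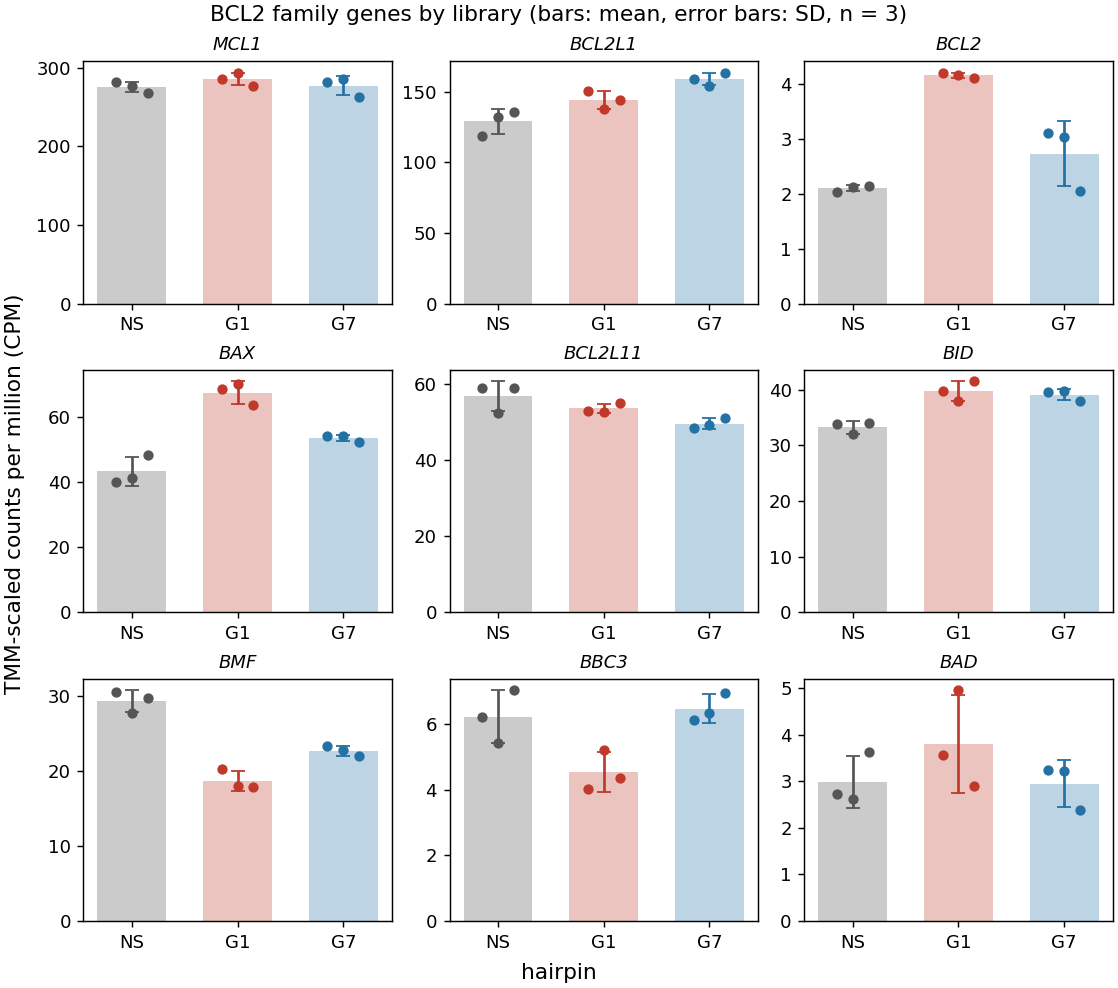
TMM-scaled CPM of the 9 tested members in each library (points), with the mean (bars from 0) and SD (error bars) of the 3 libraries of the control hairpin, G1 and G7. BAX rises and BMF falls from NS to G7 to G1, BCL2 is near 4.16 CPM in the 3 G1 libraries, and MCL1 overlaps in all groups.

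Of the effectors, BAX (ENSG00000087088, chromosome 19, 48954815 to 48961798), whose protein forms pores in the outer membrane, rose with both hairpins and more with G1. NS libraries had 40.2, 41.3 and 48.6 CPM, G1 libraries 68.6, 70.4 and 63.7 CPM and G7 libraries 54.1, 54.1 and 52.5 CPM. The 3 groups were fully separated, with G7 between the others. The log2 fold change was 0.64 ± 0.065 with G1 (edgeR adjusted p = 1.24e-07) and 0.30 ± 0.066 with G7 (0.00282), and G1 minus G7 was 0.34 ± 0.062 (0.000226). These calls held in every alternative run other than glmTreat. BAX is the gene whose E-boxes are printed above.

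BAK1 (ENSG00000030110, chromosome 6, 33572547 to 33580293), which encodes the other effector, was listed at 0 counts in all 9 libraries. So was HNRNPA1, an RNA-binding protein gene used by nearly every cell, chosen as an example after its value was seen. A 0 in this table therefore does not show that a gene was silent. In GENCODE 29 other genes overlap 4.1% of the BAK1 exon bases and 0% of those of HNRNPA1. No fold can be given for BAK1, and every statement on the effector members rests on BAX. BOK, a BAX-like gene of the wider family named after its values were seen, stood at 46.7 ± 4.79 TPM in NS. Its log2 fold change was 0.05 ± 0.074 with G1 (edgeR adjusted p = 0.544) and 0.06 ± 0.073 with G7 (0.640).

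The BH3-only genes did not move together: with G1, BID rose, BMF and BBC3 fell, and BCL2L11 and BAD were not called. BMF (ENSG00000104081, chromosome 15, 40087890 to 40108892), whose protein is held at the cytoskeleton and freed by stress, had 30.5, 27.7 and 29.8 CPM in NS, 20.2, 17.97 and 17.9 CPM with G1 and 23.4, 22.8 and 21.9 CPM with G7. The groups were fully separated, in the reverse order of BAX. Its log2 fold change was -0.65 ± 0.072 with G1 (edgeR adjusted p = 3.46e-07), a fold of 0.637, and -0.37 ± 0.069 with G7 (0.000749). G1 was lower than G7 by -0.28 ± 0.072 (edgeR adjusted p = 0.00378). The BMF calls held in every alternative run other than glmTreat.

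BCL2L11 (ENSG00000153094, chromosome 2, 111119378 to 111168447), the BIM gene, changed little. NS libraries had 58.9, 52.3 and 59.0 CPM, G1 libraries 52.9, 52.6 and 54.9 CPM and G7 libraries 48.5, 49.0 and 51.1 CPM. G7 lay below all NS libraries, while G1 overlapped them through NS replicate 2. With G7 the log2 fold change was -0.20 ± 0.056 (edgeR adjusted p = 0.0156). That call ended without NS replicate 1 (-0.17, adjusted p = 0.0740) or 3 (-0.16, 0.0654) and without G7 replicate 1 (-0.18, 0.0635) or 2 (-0.19, 0.0507). With G1 it was -0.09 ± 0.056 (edgeR adjusted p = 0.194), called with upper quartile scaling (-0.17, 0.0131) and without NS replicate 2 (-0.14, 0.0444). The difference between the hairpins, 0.11 ± 0.055, was not called (edgeR adjusted p = 0.112). The long noncoding RNA gene MIR4435-2HG overlaps 10.9% of the BCL2L11 exon bases on the opposite strand, and BIM splice forms are not separated by gene counts.

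BID (ENSG00000015475, chromosome 22, 17734138 to 17774770), which links caspase-8 to the mitochondrion, had 33.8, 31.9 and 34.0 CPM in NS, 39.8, 37.99 and 41.5 CPM with G1 and 39.6, 39.7 and 37.97 CPM with G7. Both hairpin groups lay above all NS libraries and overlapped each other. The rise was 0.255 ± 0.059 on the log2 scale with G1 (edgeR adjusted p = 0.00107) and 0.23 ± 0.058 with G7 (0.00726), the latter lost in libraries thinned to 1 depth (0.17, 0.0615). Between the hairpins the difference was 0.02 ± 0.056 (edgeR adjusted p = 0.772).

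BBC3 (ENSG00000105327, chromosome 19, 47220822 to 47232766) encodes PUMA, a BH3-only protein that binds all of the anti-apoptotic members described here. It stood at 6.20, 5.43 and 7.02 CPM in NS, 4.03, 5.22 and 4.36 CPM with G1 and 6.12, 6.33 and 6.94 CPM with G7. G1 lay below the other groups by a narrow margin, and G7 lay within the NS range. The log2 fold change with G1 was -0.45 ± 0.139 (edgeR adjusted p = 0.00929), lost without NS replicate 3 (-0.34, 0.0724) or G1 replicate 1 (-0.37, 0.0528). With G7 it was 0.05 ± 0.127 (edgeR adjusted p = 0.820). The difference itself, -0.50 ± 0.131, was called (edgeR adjusted p = 0.00437) but not in thinned libraries (-0.39, 0.0789).

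BAD (ENSG00000002330, chromosome 11, 64269830 to 64284704), whose protein is held inactive by 14-3-3 proteins under growth factor signalling, was not called with either hairpin and had 36 to 94 reads per library. It had 2.72, 2.61 and 3.63 CPM in NS, 3.56, 4.95 and 2.89 CPM with G1 and 3.24, 3.23 and 2.38 CPM with G7, and all groups overlapped. The log2 fold change was 0.35 ± 0.206 with G1 (edgeR adjusted p = 0.153) and -0.04 ± 0.212 with G7 (0.913). Without G1 replicate 3 the G1 value was 0.51 and was called (edgeR adjusted p = 0.0417). GPR137 overlaps 23.7% of the BAD exon bases on the opposite strand, and the strand setting of the counting is not given in the sources used here.

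Ratios of members within a library do not depend on scaling between libraries, and 6 pairs were compared with each hairpin, 12 tests in all. An exact two-sided permutation test of 3 against 3 libraries cannot go below p = 0.1. The log2 ratio of BMF to MCL1 counts was -3.20, -3.32 and -3.17 in NS, -3.82, -4.03 and -3.95 with G1 and -3.595, -3.65 and -3.58 with G7. Both hairpin groups lay wholly below NS, with mean differences of -0.705 and -0.38 (exact p = 0.1 each, 0.171 after Benjamini-Hochberg adjustment). BCL2L11 to BCL2L1, which sets BIM against BCL-XL, was also lower in every hairpin library, by -0.24 with G1 and -0.50 with G7 (exact p = 0.1 each, adjusted 0.171). Without NS replicate 1 the G1 difference was -0.16. BCL2L11 to MCL1 differed by -0.14 and -0.20 with overlap (exact p = 0.2 each, adjusted 0.24), and without NS replicate 3 the G1 difference was -0.09.

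The log2 ratio of BAX to BCL2L1 was -1.56, -1.68 and -1.48 in NS and -1.13, -0.97 and -1.17 with G1, a difference of 0.48 without overlap (exact p = 0.1, adjusted 0.171). With G7 it was -1.56, -1.51 and -1.64, a difference of 0.01 (exact p = 0.9), since BAX and BCL2L1 had the same change there, 0.30 each. BBC3 to MCL1 had a difference of -0.51 with G1 (exact p = 0.1) and 0.05 with G7 (exact p = 0.7). BCL2 to MCL1 was higher by 0.93 with G1 (exact p = 0.1) and by 0.34 with G7 (exact p = 0.2), where G7 replicate 3, at -7.00, lay within the NS range. Whether G1 and G7 differ in a ratio was not tested.

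**Figure D4:**
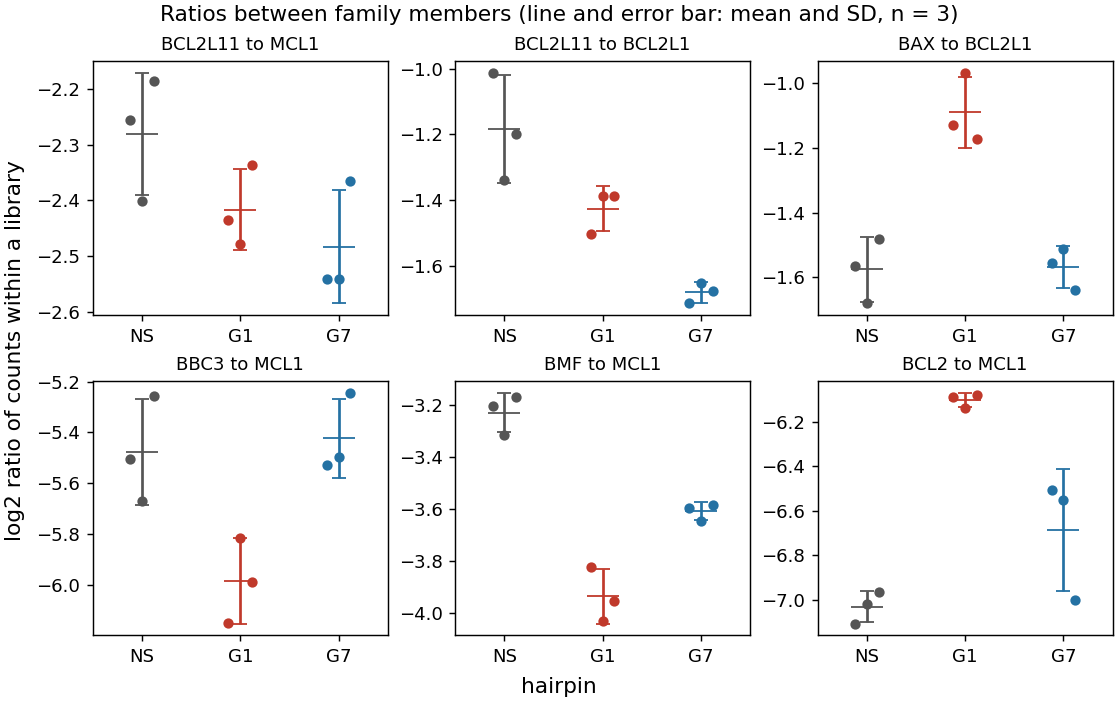
Log2 ratio of the counts of 2 members within each library (points), with mean and SD of 3 libraries, for the control hairpin, G1 and G7. BMF to MCL1 is lower and BCL2L11 to BCL2L1 is lower with both hairpins, while BAX to BCL2L1 is higher with G1 and overlaps the control libraries with G7.

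The genes most like the members in pattern were sought over the 9 libraries by Pearson's r of log2 CPM, among 11115 other genes with a mean of at least 2 CPM, for the 4 members with the smallest G1 p-values. BAX was followed most closely by SLC44A2 (r = 0.993), CBX6 (0.991) and BMP4 (0.990). For BMF they were AHNAK2 (0.989), CRELD2 (0.987) and LINC01003 (0.987). BCL2 came closest to CHD4 (0.989), NOL6 (0.985) and YTHDF1 (0.983), and BID to FBN1 (0.975), PODXL (0.972) and GRAMD1B (0.968). The 9 points share libraries and 3 group means, and these values are descriptions without a test.

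The wider family was described from a list of 13 further genes, of which 9 were tested. With G1, 3 were higher and 2 lower (median log2 fold change 0.055), and with G7, 1 higher and 2 lower (median -0.09). That is 55.6% called with G1, against 59.1% of all tested genes, and 33.3% with G7, against 22.7%. With G7 the lower count was 1 with DESeq2. BCL2L14, a family member of unsettled function, fell from 5.75 ± 0.757 to 1.53 ± 0.124 CPM with G1 (SD, n = 3), a log2 fold change of -1.89 (edgeR adjusted p = 2.84e-08). With G7 its change was -0.40 (edgeR adjusted p = 0.0411), lost without NS replicate 1 or 2 or G7 replicate 1 or 3 (adjusted p = 0.104 to 0.158), with DESeq2 (0.129), with only the 2 groups compared (0.0542) and in thinned libraries (0.217). HRK, a further BH3-only gene, changed by -0.96 with G1 (edgeR adjusted p = 1.93e-07) and by -0.25 with G7 (0.0551), where upper quartile scaling called it (-0.28, 0.0361). BCL2L12 rose by 0.77 with G1 and 0.46 with G7 (edgeR adjusted p = 8.74e-06 and 0.00647). The mitophagy receptor gene BNIP3 rose by 0.35 with G1. BNIP3L, its relative, rose by 0.21 with G1 (edgeR adjusted p = 0.000979) and fell by 0.21 with G7 (0.00480). The untested 4 were BCL2L2 and BCL2L15, listed at 0 in all libraries, and BCL2A1 and BCL2L10, with 5 and 7 reads over the 9 libraries.

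Downstream of the pores, of 13 tested apoptosome and caspase genes, 7 were higher and 1 lower with G1 (median 0.34), and 3 were higher and 0 lower with G7 (median 0.04). The share called was 61.5% with G1 and 23.1% with G7, near the 59.1% and 22.7% of all tested genes. With upper quartile scaling 6 were higher and 1 lower with G1, and with DESeq2 6 and 0. CYCS, which encodes cytochrome c, rose by 1.07 with G1 (edgeR adjusted p = 2.87e-11) and 0.34 with G7 (0.000472). The repair enzyme and caspase substrate gene PARP1 rose by 0.69 and 0.23, and AIFM1, which encodes a protein of the mitochondrial space between the membranes, by 0.51 and 0.24. DIABLO was listed at 0 in all libraries and was not tested.

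In the death receptor arm, 3 of 10 tested genes rose and 1 fell with G1, where upper quartile scaling gave 3 and 4. TNFRSF10B, named after its values were seen, had -0.16 with G1 (edgeR adjusted p = 0.0550). It was called lower with the replicate block (0.0194), only the 2 groups compared (0.0224), no mitochondrially encoded genes (0.0432) and thinned libraries (0.0256). Likewise it was called without G1 replicate 2 (0.02075) or G7 replicate 3 (0.0254). With G7, 0 rose and 2 fell, or 1 fell with DESeq2. The share called was 40% with G1, below the 59.1% of all tested genes, and 20% with G7, near their 22.7%. CASP8 had -0.16 with G7 (edgeR adjusted p = 0.0419). That call ended with DESeq2 (0.0595), with only the 2 groups compared (0.0607) and in thinned libraries (0.0870). It also ended without NS replicate 2, G1 replicate 2 or 3, or G7 replicate 1 or 2 (0.0555 to 0.212). CFLAR, which encodes the caspase-8 inhibitor FLIP, fell by 0.63 on the log2 scale with G1 (edgeR adjusted p = 9.34e-09). With G7 it had -0.15 (edgeR adjusted p = 0.0383), lost without any 1 of 5 libraries (NS replicate 1 or 2, G1 replicate 2, or G7 replicate 1 or 2; adjusted p = 0.0504 to 0.196). The receptor gene FAS rose by 0.59 with G1 (edgeR adjusted p = 3.19e-05), TNFRSF10A by 0.31 and the adaptor gene FADD by 0.47 (0.00984). The FADD call ended in thinned libraries (0.32, adjusted p = 0.0638) and without G1 replicate 2 (0.28, 0.0990).

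Of 12 tested partners that turn over or bind MCL1, BIM, BAD or BMF, 8 were higher and 3 lower with G1 (median 0.35), and 5 were higher and 0 lower with G7 (median 0.14). Of all tested genes 30.4% were called upward with G1 and 13.1% with G7. With G1, upper quartile scaling gave 6 higher and 3 lower, and no filter 8 and 1. The largest rises named by rule were SFN, a 14-3-3 gene, by 1.28 with G1 and 0.37 with G7, and CDC20, an activator of the anaphase-promoting complex, by 1.23 and 0.39. DYNLL1, whose light chain binds BIM, rose by 0.60 with G1 (edgeR adjusted p = 1.97e-09) and had 0.12 with G7 (0.0564). The 14-3-3 gene YWHAZ rose by 0.60 with G1 and 0.155 with G7 (edgeR adjusted p = 0.0160), the latter lost without NS replicate 3 (0.12, 0.0510) or G7 replicate 2 (0.15, 0.0562).

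Transcription factors that act on BH3-only genes went both ways. Of 13 tested, 5 were higher and 5 lower with G1, and 2 higher and 3 lower with G7. The share called was 76.9% with G1 and 38.5% with G7, against 59.1% and 22.7% of all tested genes. With G7 the higher count was 1 under upper quartile scaling, no filter, DESeq2 and limma voom, where JUN (0.185 with DESeq2, adjusted p = 0.1025), named after its values were seen, was no longer called. The JUN call also ended without mitochondrially encoded genes (0.0599) and with only the 2 groups compared (0.0660). Likewise it ended without NS replicate 1 or 2, G1 replicate 1 or any G7 replicate (0.0674 to 0.149). DDIT3, which encodes the stress factor CHOP, fell by 3.11 on the log2 scale with G1 (edgeR adjusted p = 2.04e-08) and by 0.69 with G7 (0.0118), the latter lost without NS replicate 2 (-0.55, 0.0790). Its G1 libraries held 4, 7 and 9 reads and its NS libraries 38, 59 and 55, so the size of the G1 fall rests on few reads. E2F1, a cell cycle factor, rose by 1.58 with G1 and 0.89 with G7. ATF4 fell by 0.55 and 0.19, and EGR1 by 0.98 with G1 alone called (-0.05 with G7, edgeR adjusted p = 0.632). FOXO3, known to raise BIM, was singled out after its values were seen. It had -0.13 with G1 (edgeR adjusted p = 0.0142), lost without the filter (0.128) and without G1 replicate 2 (0.0609). With G7 it had -0.12 (edgeR adjusted p = 0.0383), lost without any NS replicate, G1 replicate 2 or 3, or G7 replicate 1 or 3 (0.0550 to 0.114), and also without the filter (0.0858), with only the 2 groups compared (0.0585) and in thinned libraries (0.0939). Of 12 mitochondrial membrane genes, 10 were higher and 1 lower with G1 (median 0.45), and 7 higher and 0 lower with G7 (5 and 0 with upper quartile scaling). With G1 the OPA1 rise ended with upper quartile scaling (edgeR adjusted p = 0.533) and thinned libraries (0.0707). The TOMM20 fall ended without the filter (0.0542). Both also ended with certain single libraries left out (0.0673 to 0.111). With G7 the replicate block added VDAC2 and VDAC3 (0.0370 and 0.0422), while comparing only the 2 groups lost TOMM22 and BCAP31 (0.0573 and 0.0598). Apart from VDAC3, these genes were named after their values were seen. Of all tested genes 30.4% were called upward with G1 and 13.1% with G7. The import pore gene TOMM40 rose by 0.94 and 0.41, the channel gene VDAC1 by 0.53 and 0.245 and the fusion gene MFN2 by 0.66 and 0.22.

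**Figure D5:**
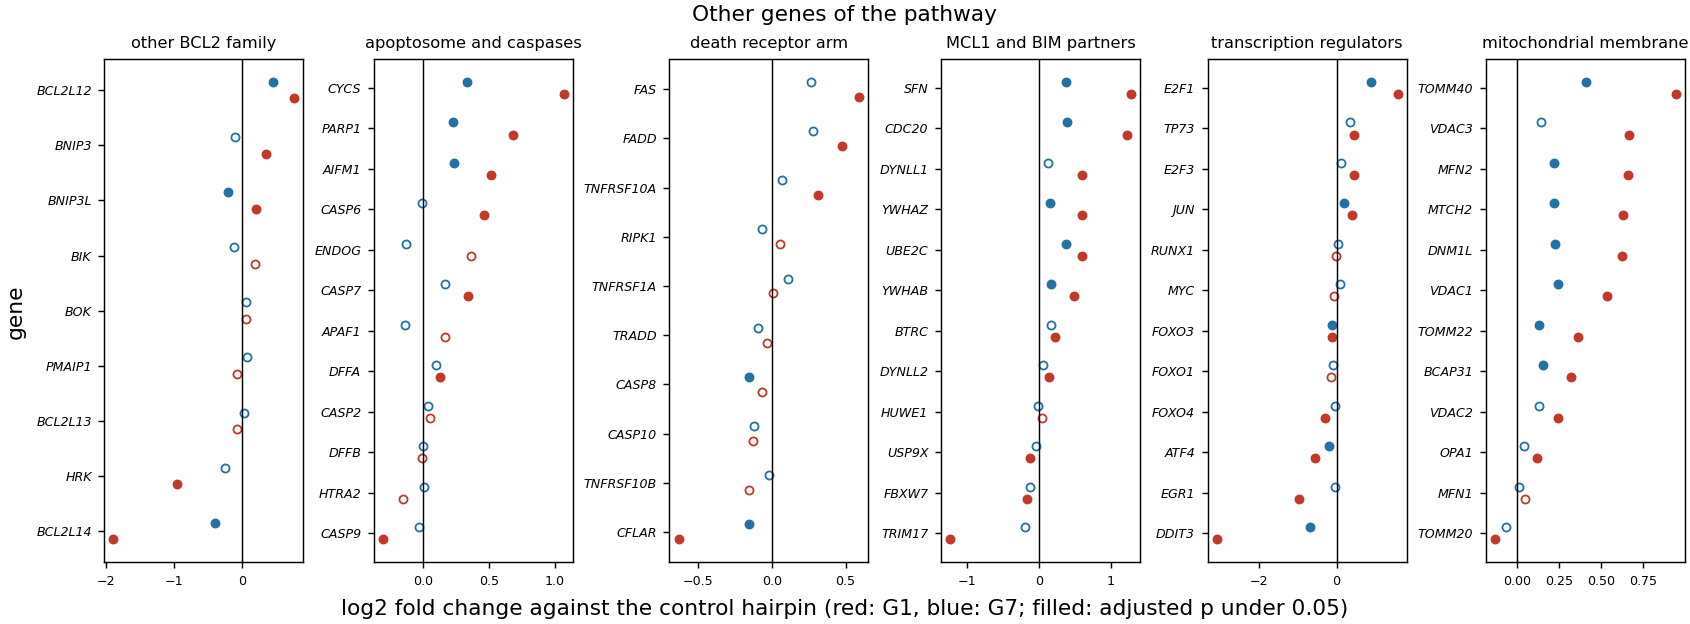
Log2 fold change against the control hairpin for genes of 6 lists around the BCL2 family, with G1 in red and G7 in blue and filled points for an adjusted p under 0.05. CYCS and TOMM40 lead the rises of their lists with G1, while BCL2L14, CFLAR and DDIT3 lie lowest in theirs.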

How the data were processed

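The authors deposited raw read counts per Ensembl gene, with 1 column for each library. The submitters' processing notes name TopHat2 2.1.0, HTSeq 0.6.0 and the build hg38 (GRCh38). Not given in the sources used here are the annotation release, the strand setting and any read filter, and a counter that skips reads in overlapping genes lowers those genes. Per the labels' protocols, RNA was selected with oligo-dT beads and libraries kept strand.

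Of 60675 rows, 57055 matched GENCODE 29, which gave symbols, coordinates and exon lengths, and the others held 0.025% of counts. edgeR 4.0.16 in R 4.3.3 was run on all 9 libraries: filterByExpr (13264 genes), TMM, 1 mean per group, glmQLFTest, two-sided, with Benjamini-Hochberg adjustment over all tested genes and calls under 0.05. Log2 fold changes carry their SE after ±. Alternatives used RLE or upper quartile scaling, no filter, DESeq2 1.42.0, limma 3.58.1 voom, 2 groups only, a replicate block, no mitochondrial genes, thinned counts, glmTreat and each library left out. The procedure was tested on simulated data in which few genes changed, alike in both hairpin groups and evenly up and down. That run could not test the scaling where changes are as wide as with G1. For every pair of libraries in a group, counts differed by more than sampling noise (chi-square per degree of freedom 1.51 to 24.7), so all were kept. A count of 0 allows up to 3 counts, 0.236 CPM in the shallowest library, for counting error only.

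The members, lists and tests were chosen with earlier results of these data known. All members were named. From each other list, up to 4 genes with the smallest G1 and 2 with the smallest G7 p-values could be named. Protein sequences were not used here, and 2 list genes are counted in their lists but not reported here by name.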

Additional observations from a re-analysis of the deposited data

How the results depend on the processing

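The counts of members called were the same or within 1.5 times under RLE and upper quartile scaling, no filter, DESeq2, limma voom, only the 2 groups compared, no mitochondrially encoded genes and thinned libraries. A count of 2 against 3 passes that limit, so single calls could change within it. With G1, upper quartile scaling lost the BCL2L1 rise and added a BCL2L11 fall. Thinned libraries lost the BID rise with G7 and the BBC3 difference between hairpins. Against a 1.5-fold change, glmTreat called 0 higher and 0 lower in each comparison, and 1217, 10 and 316 of all genes (G1, G7, G1 minus G7) against 7837, 3014 and 5962. With 1 library left out, members called numbered 3 to 5 higher and 1 to 3 lower with G1, 3 to 4 higher and 1 to 2 lower with G7, and 2 to 3 higher and 2 to 3 lower between hairpins. With G7 the lower counts then ran from 1 to 3 for the wider family, 0 to 2 for the death receptor arm and 1 to 3 for the transcription factors, and with G1 from 1 to 3 for the partners of MCL1 and BIM. An arm left with 2 libraries borrows its spread from the others. The replicate block gave 4 higher and 2 lower with G1, 3 and 2 with G7 and 2 and 3 between hairpins, so it changed no count. Deviations of same-numbered libraries correlated at -0.076 to 0.053 between NS and a hairpin group, and other such pairs at -0.139 to 0.186. Between G1 and G7 the same-numbered pairs had 0.032, 0.141 and 0.199, and the other pairs -0.191 to 0.078. Each G1 library there correlated best with the G7 library of its own number. Whether the numbers mark a shared batch is not given in the labels and was not tested.

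Signs turned only where no call was made. MCL1 had -0.0327, -0.0185 and -0.0143 (G1, G7, G1 minus G7) with upper quartile scaling. With G7 it had -0.0029 without mitochondrial genes, and -0.0118 to 0.0471 with 1 library left out. BID between hairpins had -0.0374 with upper quartile scaling and -0.0066 to 0.0565 with 1 library left out. BBC3 with G7 had -0.0455 in thinned libraries and -0.0375 to 0.1595 with 1 library left out. BAD with G7 had -0.136 to 0.1379 with 1 library left out. BAD between hairpins, 0.395 (edgeR adjusted p = 0.109), was called without the filter (0.42, 0.0364) and without G1 replicate 3 (0.55, 0.0307).

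With the longest transcript as the gene's length, in place of merged exons, TPM in NS, G1 and G7 was 79.3, 115 and 94.1 for BAX, 33.1, 36.7 and 37.4 for BID and 8.42, 5.71 and 8.35 for BBC3. For NS and G1 it was 0.700 and 1.29 for BCL2 and 174 and 168 for MCL1, and BCL2L11 had 26.98 and 23.6. The reads were the same, and the lengths of all genes changed, so the total to which TPM is scaled changed too. MCL1 was thus lower in NS (174 against 191 TPM) though its own length went from 4371 to 3932 bases. Among tested members BCL2, BAD and BBC3 had the fewest reads, 27 to 149 per library, and their SEs were the largest.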
